A study of Homo sapiens with 6 samples.

Results

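The 75 genes described here encode proteins of the human mitochondrial ribosome. They were chosen by name, as every symbol made of MRPL or MRPS, a number and at most the letter A, B or C, among the 13289 genes listed in the deposited expression tables. Of these 75 genes, 47 are named MRPL and 28 MRPS, and each is listed in both tables, which share 12301 genes. MRPS18B was not analysed here. By the structure of the mammalian ribosome, 49 of the proteins sit in the large subunit, among them MRPS30 and MRPS18A despite their names, and 25 sit in the small subunit. MRPS36 was kept because it carries the name, although it is now known as KGD4, a part of the alpha-ketoglutarate dehydrogenase complex.

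The libraries came from NB4 cells, an established line of acute promyelocytic leukemia that matures towards granulocytes when it is given all-trans retinoic acid (ATRA). Cells carried SMARCD2 hairpin 1, SMARCD2 hairpin 2 or a control construct, and SMARCD2 encodes a subunit of the SWI/SNF chromatin remodelling complexes. Each of the 3 constructs gave 1 library with ATRA at 1 µM and 1 library with the vehicle DMSO, so 6 libraries in all. How long the cells were treated is not stated in the labels, and all cells carried a construct. The labels also do not say whether libraries came from separate cultures, so every p-value here reflects only how far these 6 libraries differ, which may be technical.

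The mitochondrial ribosome translates the few messages encoded by mitochondrial DNA, all of which specify subunits of the respiratory chain and ATP synthase. Its RNAs come from mitochondrial DNA, whereas all of its proteins are encoded in the nucleus, made in the cytosol and imported. Some of the proteins descend from those of the bacterial ribosome, and others were added in the mitochondrial lineage.

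To show the sequence in front of the genes that changed most with ATRA, the bases upstream of their starts are printed 5′ to 3′ on the strand of the gene, from the RefSeq promoter table (GRCh38.p14). Each stretch is cut where a neighbouring gene's exon or the gene's own earliest annotated start begins. Capitals mark a match to CCGGAAG (ETS family), to GCGC followed by any base and TGCGC (NRF1), or to CCAAT (the box bound by NF-Y), on either strand. The first 4 belong to the genes with the largest called increases with ATRA and the last 3 to those with the largest called decreases.
MRPS6, chr21:34073328-34073522, plus strand: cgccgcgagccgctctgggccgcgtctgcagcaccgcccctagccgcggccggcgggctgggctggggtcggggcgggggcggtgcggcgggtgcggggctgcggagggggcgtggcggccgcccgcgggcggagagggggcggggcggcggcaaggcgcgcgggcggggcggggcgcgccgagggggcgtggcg
MRPL47, chr3:179604655-179604701, minus strand: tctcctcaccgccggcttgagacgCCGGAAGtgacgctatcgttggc
MRPL54, chr19:3762432-3762663, plus strand: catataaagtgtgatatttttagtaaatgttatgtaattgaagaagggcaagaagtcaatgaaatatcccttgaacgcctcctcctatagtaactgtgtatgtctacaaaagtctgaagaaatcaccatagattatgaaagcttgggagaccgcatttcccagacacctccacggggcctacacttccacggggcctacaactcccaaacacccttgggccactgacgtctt
MRPL17, chr11:6683402-6683590, minus strand: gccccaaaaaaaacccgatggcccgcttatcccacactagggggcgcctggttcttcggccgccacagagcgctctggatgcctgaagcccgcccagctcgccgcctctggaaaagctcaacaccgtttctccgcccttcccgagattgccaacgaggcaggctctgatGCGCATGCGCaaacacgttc
MRPS2, chr9:135499916-135499964, plus strand: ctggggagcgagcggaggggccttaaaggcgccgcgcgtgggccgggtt
MRPS27, chr5:72320262-72320366, minus strand: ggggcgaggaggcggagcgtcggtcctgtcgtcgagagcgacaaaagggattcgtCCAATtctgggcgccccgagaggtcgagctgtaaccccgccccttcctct
MRPL45, chr17:38296918-38297022, plus strand: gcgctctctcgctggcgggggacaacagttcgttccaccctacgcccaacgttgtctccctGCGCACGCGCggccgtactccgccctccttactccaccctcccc
The stretches of MRPL47, MRPS2 and MRPS27 are short because exons of NDUFB5, C9orf116 and PTCD2 lie next to them. A match is a description of the letters only.

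Promoter windows of 66 of the 75 genes were matched, on 20 chromosomes, and searched on both strands. In the 250 bases before the start, CCGGAAG was found in 33.3% of these 66 windows, against 15.8% of the windows of genes in both tables and 8.82% of all 27305 windows. AAGATGGC, the core bound by YY1, was found in 21.2% of the 66 windows in the 50 bases after the start, against 3.63% of genes in both tables. The NRF1 motif was found in 10.6% of the 66 windows before the start and in 10.3% of genes in both tables. Direct repeats of AGGTCA spaced by 5 or 2 bases, forms of the retinoic acid receptor element, were in 0 of the 66 windows before the start and also in 0 of the 9550 windows of genes in both tables, so this count does not set the 66 apart. By response to ATRA, CCGGAAG before the start was present in 6 of 14 matched genes that were higher, 7 of 33 that were lower and 9 of 19 that were not called.

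Library totals ran between 29291209 and 58099733 counts, and the 75 genes together took between 107509 and 247682 of them per library. The lowest count of any of the 75 genes in any library was 210. SMARCD2 itself had 64.2 and 35.6 CPM (counts scaled to library size by TMM) with hairpins 1 and 2 and 122 CPM in the control under ATRA, and 39.0, 25.7 and 95.5 CPM in the same order in DMSO. It was lower in every hairpin library than in the control of its treatment, with a log2 fold change of -1.42 ± 0.22 (SE) over both treatments, and edgeR's adjusted p was 0.38. The 5 markers of maturing granulocytes summed to 7239 to 8023 CPM in ATRA libraries, against 284 to 335 CPM in DMSO libraries. The 5 promyelocyte markers listed in both tables summed to 4666 to 6352 CPM in ATRA libraries, against 10183 to 10414.5 CPM in DMSO libraries, without ELANE, which is listed for DMSO only. The part of this maturation in the changes below was not tested. In bulk RNA, fewer cells of a type and less RNA per cell cannot be told apart.

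Divided by the union of each gene's exons, mean levels ran between 4.25 and 183 CPM per kb, with a median of 22.9 CPM per kb, against a median of 10.0 CPM per kb over 11948 genes with a length. MRPS6, MRPL4 and MRPS35 ranked highest, at 183, 152 and 114 CPM per kb of exon union. MRPL50 and MRPS17 ranked lowest, at 4.25 and 4.97 CPM per kb of exon union. The order of the genes above these lowest 2 depends on which length is used. With the median length of a gene's protein-coding transcripts, a choice added after the first levels were seen, the median of the 75 genes was 34.2 CPM per kb, against 14.3 CPM per kb over all genes. MRPL4 and MRPS6 then ranked highest, at 268 and 183 CPM per kb of median transcript. MRPL42 stood at 6.95 CPM per kb of exon union, which spans 16006 bases, and at 121 CPM per kb of median transcript. Large-subunit and small-subunit genes had medians of 22.9 and 24.4 CPM per kb of exon union.

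As over all genes, most of the 75 genes were called with ATRA in 1 direction or the other. Changes were small and went both ways, with more genes lower than higher. At an adjusted p below 0.05 (edgeR quasi-likelihood test with Benjamini-Hochberg adjustment over all 12301 genes), 16 genes were higher with ATRA and 37 were lower. The called shares were 21.3% higher and 49.3% lower, against a background of 36.2% higher and 37.8% lower over all genes (74% in either direction). The median log2 fold change of the 75 genes was -0.14, against -0.01 over all genes. Its spread was narrow, with an SD of 0.42, against 1.16 over all genes. Changes of at least 1.5-fold were called in 5 genes that were higher and 5 that were lower, 6.67% each way, against 19.9% higher and 18.9% lower over all genes. Scaling by total counts in place of TMM moved the median of all genes to -0.14 and that of the 75 genes to -0.27. It called 10 of the 75 (13.3%) higher and 47 (62.7%) lower, against 29.6% higher and 46.5% lower over all genes.

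The 3 constructs gave similar values for the group as a whole. The median log2 difference between ATRA and DMSO was -0.14 with hairpin 1, -0.15 with hairpin 2 and -0.11 in the control. In 20 genes the ATRA library was above the DMSO library with all 3 constructs, in 43 genes it was below, and 12 genes were mixed. This count was not made over all genes, of which 74% were called with ATRA in either direction. Every ATRA library lay above every DMSO library in 19 genes and below in 38 genes, where the background over all genes was 37.6% above and 39.5% below.

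**Figure D1:**
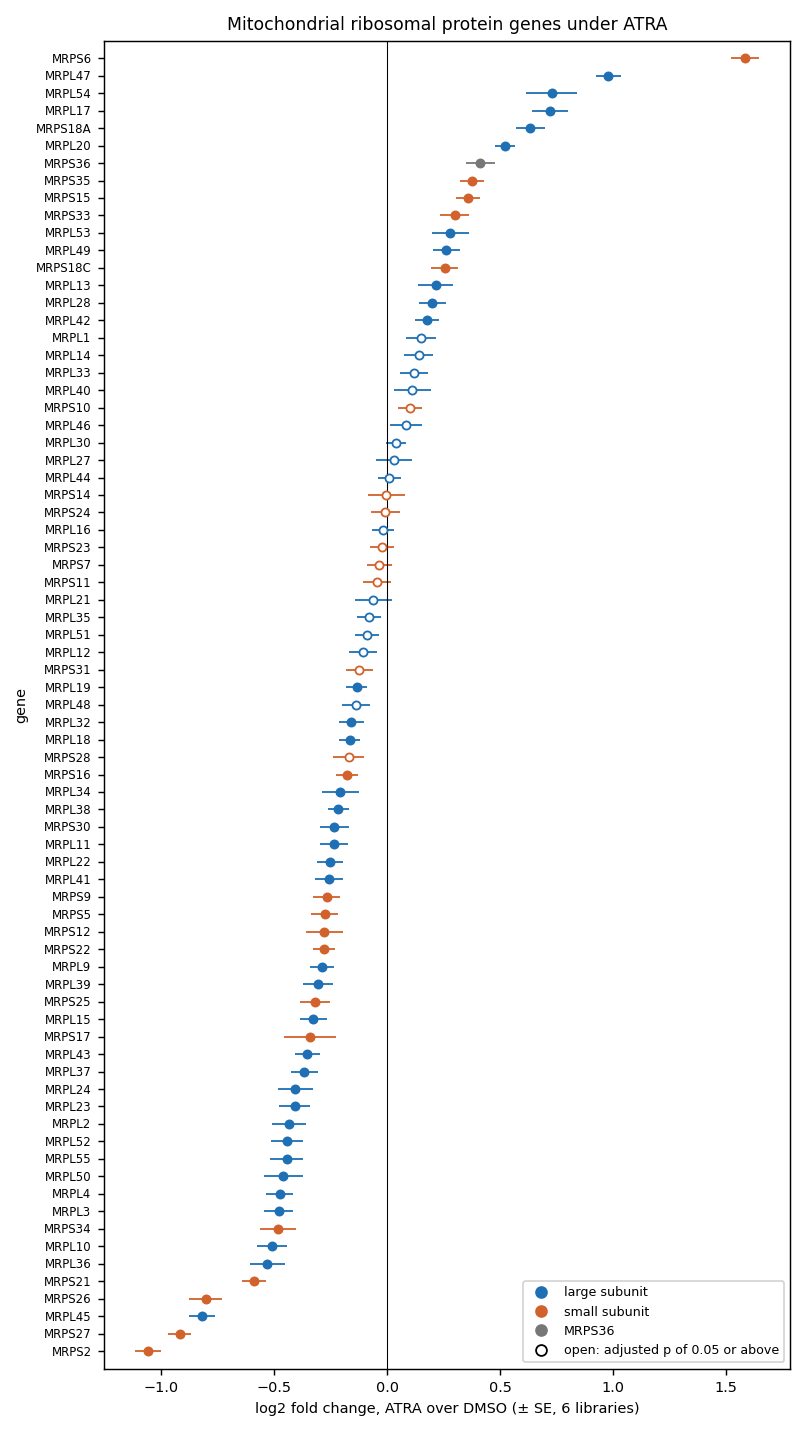
Log2 fold change of each of the 75 genes, ATRA over DMSO (x axis, points with SE, 6 libraries), ordered by size on the y axis and coloured by subunit, with open points for an adjusted p of 0.05 or above. MRPS6 stands at the top at 1.58 and MRPS2 at the bottom at -1.06, with 16 called genes above 0 and 37 below.

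Among the genes that rose, MRPS6, a homolog of bacterial S6 in the small subunit, moved furthest. It had 275 and 251 CPM with hairpins 1 and 2 and 288 CPM in the control under ATRA, against 94.7, 89.9 and 87.0 CPM in the same order in DMSO. The groups lay far apart, and the log2 fold change was 1.58 ± 0.06 (SE; adjusted p = 9.8e-08, edgeR). An exon of MRPS6 overlaps SLC5A3, a myo-inositol transporter gene on the same strand, so their reads may not be told apart. SLC5A3 itself had 195, 175 and 209 CPM under ATRA, against 73.8, 66.9 and 63.4 CPM in DMSO (adjusted p = 5.8e-07, edgeR). Over the whole group, exons of 27 of the 75 genes overlap another protein-coding gene, 10 on the same strand and 17 on the opposite strand, and 32 genes have pseudogenes named after them.

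MRPL47, the homolog of bacterial L29 near the exit of the peptide tunnel, had 47.7 and 48.3 CPM with hairpins 1 and 2 and 45.8 CPM in the control under ATRA, against 25.1, 23.6 and 23.1 CPM in DMSO. All ATRA libraries were well above all DMSO libraries, with a log2 fold change of 0.98 ± 0.05 (adjusted p = 6.9e-07, edgeR). ACTL6A, which overlaps it on the opposite strand, had a log2 fold change of -0.01 ± 0.04. MRPL17, a homolog of bacterial L17, had 47.8, 40.9 and 49.2 CPM under ATRA, against 28.7, 28.1 and 26.6 CPM in DMSO, in the order hairpin 1, hairpin 2, control. The groups did not overlap, and the log2 fold change was 0.72 ± 0.08 (adjusted p = 4.6e-05, edgeR).

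MRPL54, a large-subunit protein without a bacterial counterpart, had 12.2, 11.1 and 13.1 CPM under ATRA, against 8.08, 6.95 and 6.81 CPM in DMSO. These CPM values are low, but its exon union spans 626 bases, and its mean level was 15.5 CPM per kb. MRPS18A, one of the paralogs related to bacterial S18, had 23.4, 24.4 and 25.3 CPM under ATRA, against 15.3, 15.3 and 16.5 CPM in DMSO. MRPL20, a homolog of bacterial L20, had 78.9, 79.9 and 76.8 CPM under ATRA, against 55.9, 54.9 and 53.2 CPM in DMSO. None of these groups overlapped, and the log2 fold changes were 0.73 ± 0.11 for MRPL54, 0.63 ± 0.07 for MRPS18A and 0.52 ± 0.04 for MRPL20. MRPS36 and MRPS35 also rose, with log2 fold changes of 0.41 ± 0.07 and 0.37 ± 0.05. MRPS18C, another S18 paralog, had a log2 fold change of 0.25 ± 0.06 (adjusted p = 0.0044, edgeR), and its adjusted p was 0.10 when scaled by total counts, within a range of 0.0019 to 0.10 over its alternatives.

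The genes that fell furthest were led by small-subunit members. MRPS2, a homolog of bacterial S2 in which mutations cause a combined respiratory chain deficiency, had 25.4 and 26.3 CPM with hairpins 1 and 2 and 26.5 CPM in the control under ATRA, against 56.3, 51.9 and 54.2 CPM in DMSO. All ATRA libraries were below all DMSO libraries, with a log2 fold change of -1.06 ± 0.06 (adjusted p = 5.4e-07, edgeR). MRPS27, a pentatricopeptide repeat protein, had 65.1, 63.3 and 64.3 CPM under ATRA, against 122, 114 and 129 CPM in DMSO. Its groups lay apart as well, with a log2 fold change of -0.92 ± 0.05 (adjusted p = 6.9e-07, edgeR).

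MRPL45, which lies near the tunnel exit and contacts the inner membrane, had 47.6, 44.4 and 52.6 CPM under ATRA, against 86.1, 83.4 and 84.5 CPM in DMSO. MRPS26, a small-subunit protein without a bacterial counterpart, had 35.2, 32.0 and 29.9 CPM under ATRA, against 61.7, 52.7 and 55.1 CPM in DMSO. The log2 fold changes were -0.82 ± 0.06 for MRPL45 and -0.80 ± 0.07 for MRPS26, and neither pair of groups overlapped. MRPS21 and MRPL36, homologs of bacterial S21 and L36, had log2 fold changes of -0.59 ± 0.05 and -0.53 ± 0.08. Pseudogenes carry the names of MRPL45 and MRPS21, 2 and 8 of them, and could share reads with them. The same holds for genes above that rose, with 5 for MRPS36, 2 each for MRPS6, MRPS35 and MRPS18C, and 1 each for MRPS18A and MRPL20.

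**Figure D2:**
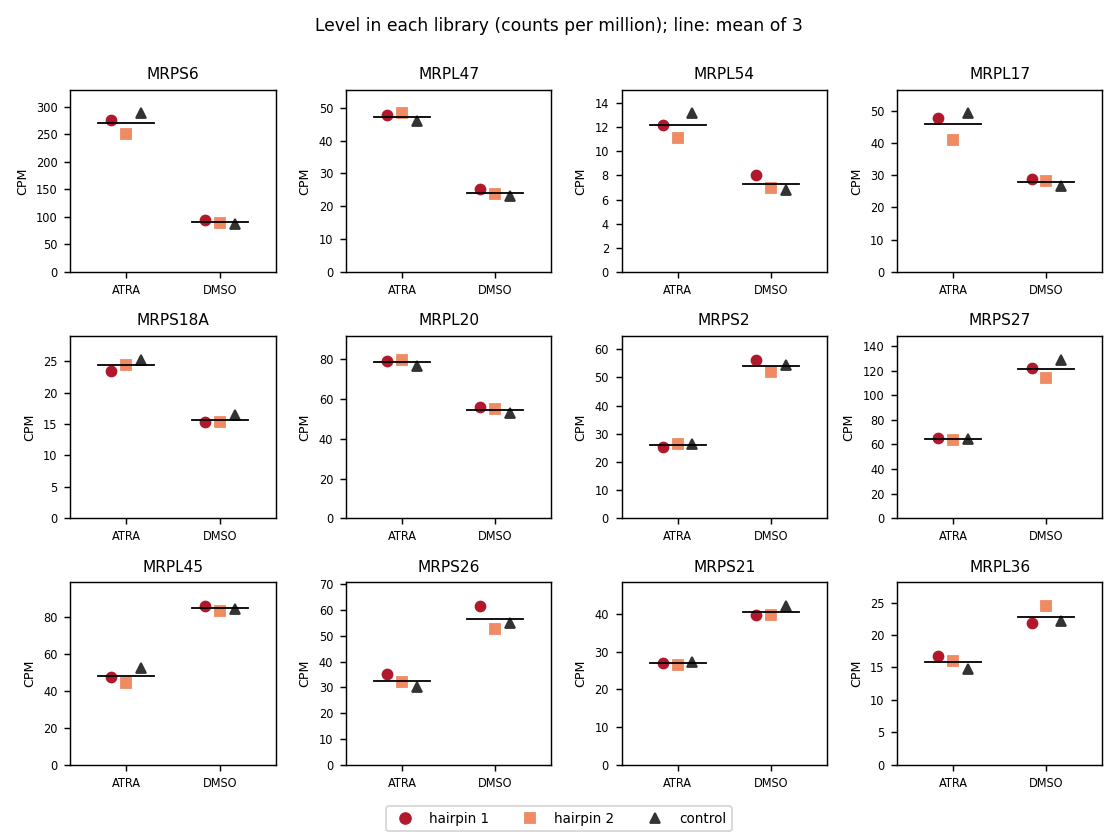
Level in CPM (TMM scaled, y axis from 0, 1 panel per gene) of genes that changed most with ATRA, with ATRA left of DMSO, 1 point per library and a line at the mean of 3. MRPS6 lies at 251 to 288 CPM in ATRA libraries and at 87.0 to 94.7 CPM in DMSO libraries, and MRPS2 at 25.4 to 26.5 CPM and 51.9 to 56.3 CPM.

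The stalk of the large subunit recruits translation factors, and MRPL10 anchors the copies of MRPL12 to it beside MRPL11. MRPL10 had 30.6, 27.6 and 29.2 CPM under ATRA, against 43.4, 42.5 and 38.3 CPM in DMSO, and a log2 fold change of -0.51 ± 0.07 (adjusted p = 1.3e-04, edgeR). MRPL11 had a log2 fold change of -0.24 ± 0.06 (adjusted p = 0.0079, edgeR), and 0.085 from the reads of run 2 alone, within a range of 5.3e-04 to 0.085 over its alternatives. MRPL12 had 69.5, 73.1 and 62.3 CPM under ATRA, against 74.6, 70.7 and 75.1 CPM in DMSO. These groups overlapped and the gene was not called, with a log2 fold change of -0.11 ± 0.06 (adjusted p = 0.16, edgeR). At least 1 alternative did call MRPL12, within a range of 0.0089 to 0.73 for the adjusted p over its alternatives.

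Several further genes are known from inherited disorders of mitochondrial translation. MRPS34 had 40.3, 37.4 and 41.2 CPM under ATRA, against 51.3, 49.1 and 68.0 CPM in DMSO, where the control library was the highest. Its log2 fold change was -0.48 ± 0.08 (adjusted p = 5.3e-04, edgeR). MRPL3 and MRPS22 were also lower, with log2 fold changes of -0.48 ± 0.06 and -0.28 ± 0.05. MRPS12, a homolog of the bacterial decoding-site protein S12, had a log2 fold change of -0.28 ± 0.08 (adjusted p = 0.014, edgeR). That call was lost without the control DMSO library (0.073), without the hairpin 1 DMSO library (0.051) and without the control ATRA library (0.070). It was also lost under a further alternative, at the top of a range of 0.0018 to 0.12 over its alternatives. MRPS16 had a log2 fold change of -0.18 ± 0.05 (adjusted p = 0.011, edgeR), and its adjusted p was 0.065 without the hairpin 1 ATRA library, within a range of 6.8e-04 to 0.065 over its alternatives. An exon of MRPS16 overlaps DNAJC9 on the same strand. MRPS7 and MRPL44 were not called, with log2 fold changes of -0.03 ± 0.06 and 0.01 ± 0.05. Over the alternatives the adjusted p ran between 0.026 and 0.80 for MRPS7, called in at least 1, and between 0.066 and 0.95 for MRPL44.

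By subunit, 10 of 49 large-subunit genes were higher and 25 lower, 20.4% and 51.0%, with a median log2 fold change of -0.14. Of 25 small-subunit genes, 5 were higher and 12 lower, 20% and 48%, with a median of -0.17. Over all genes the shares were 36.2% higher and 37.8% lower, with a median of -0.01. Among the 47 genes with a bacterial counterpart 9 were higher and 23 lower, 19.1% and 48.9%, and among the 27 without one 6 were higher and 14 lower, 22.2% and 51.9%. The summed level of large-subunit genes was 2311 to 2332 CPM in ATRA libraries, against 2513 to 2632 CPM in DMSO libraries. The summed level of small-subunit genes was 1436 to 1487 CPM in ATRA libraries, against 1383 to 1459 CPM in DMSO libraries. Without MRPS6 the small-subunit sum was 1185 to 1211 CPM in ATRA libraries, against 1293 to 1365 CPM in DMSO libraries.

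Other genes of mitochondrial translation were counted against the same 36.2% higher and 37.8% lower over all genes. Of 24 assembly factors of the mitochondrial ribosome, 0 were higher and 15 (62.5%) lower, with a median log2 fold change of -0.18. The lowest were YBEY at -1.12 ± 0.15 and RBFA at -1.01 ± 0.08. In a list of 18 mitochondrial tRNA synthetases and related genes, 3 (16.7%) were higher and 10 (55.6%) lower, with NARS2 at -1.02 ± 0.07 and CARS2 at 0.88 ± 0.06. That list holds QRSL1 and GATC, which are not synthetases and were not called. In a list of 16 translation factors and related genes, among them LRPPRC, SLIRP and OXA1L, 4 (25%) were higher and 7 (43.8%) lower. The initiation factor MTIF2 had -0.67 ± 0.05, and MTRF1L had 0.37 ± 0.07. Of 11 genes of mitochondrial transcription and RNA processing, 1 (9.09%) was higher and 7 (63.6%) lower, with a median of -0.46. The mitochondrial RNA polymerase POLRMT had -0.74 ± 0.06, and PNPT1, the gene called higher, had 0.63 ± 0.05. Of 6 ribosomal subunits under other symbols, 2 (33.3%) were higher and 3 (50%) lower. GADD45GIP1 had -0.59 ± 0.06, DAP3 had -0.49 ± 0.04 and AURKAIP1 had 0.29 ± 0.05.

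**Figure D3:**
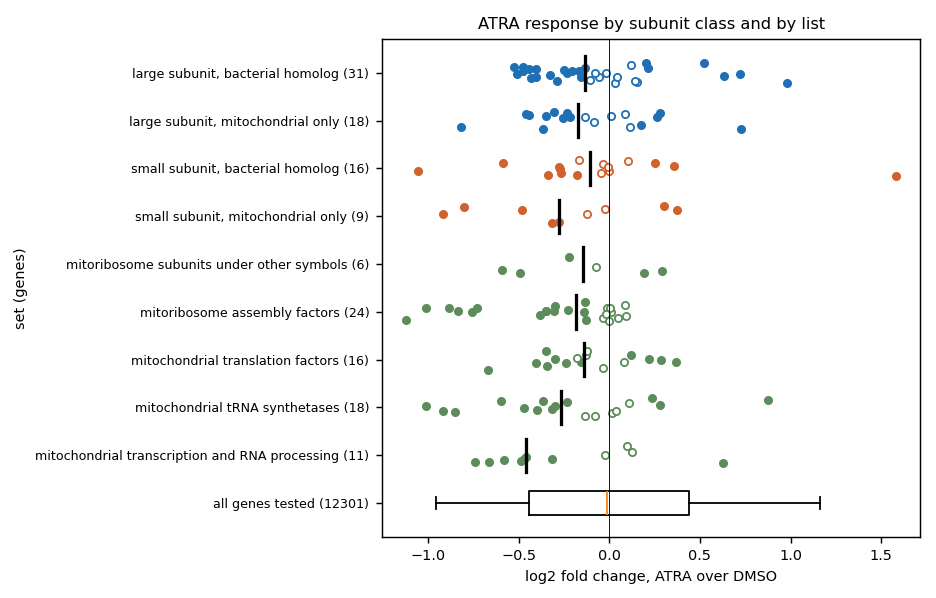
Log2 fold change with ATRA over DMSO (x axis) of every gene in each subunit class or list (y axis), with open points for an adjusted p of 0.05 or above and a bar at the median. The box below gives the quartiles of all 12301 genes with whiskers at the 10th and 90th percentiles, and the list medians run between -0.46 for transcription and RNA processing and -0.11 for small-subunit genes with a bacterial homolog.

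With SMARCD2 hairpins, log2 fold changes over both treatments were small among the 75 genes. No gene was called in either direction, and the background was 0% of 12301 genes. SMARCD2 itself, at -1.42 ± 0.22, was not called by this fit (adjusted p = 0.38, edgeR), so a lack of calls does not show a lack of change. The smallest adjusted p of the 75 was 0.43 (edgeR), and DESeq2 and limma-voom called none of them. Of all genes, DESeq2 called 0.179% higher and 0.252% lower, and limma-voom called 0% in each direction. An unadjusted p below 0.05 was given to 6 of the 75 by edgeR, against 1003 of all 12301 genes. The log2 fold changes ran between -0.29 and 0.24, with a median of 0.01. All 4 hairpin libraries were above the control of their treatment in 12 of the 75 genes and below it in 11. Of all 12301 genes, 1793 (14.6%) were above and 1749 (14.2%) below.

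MRPL41, a large-subunit protein without a bacterial counterpart, was the lowest of the 75 in this comparison. It had 25.2 and 24.0 CPM with the hairpins and 29.5 CPM in the control under ATRA, and 28.2 and 29.8 CPM with the hairpins and 36.3 CPM in the control in DMSO. Every hairpin library was below its control, with a log2 fold change of -0.29 ± 0.06 (adjusted p = 0.43, edgeR). MRPL34, a homolog of bacterial L34, was the highest, with 29.8 and 31.4 CPM with the hairpins and 22.8 CPM in the control under ATRA, and 33.6 and 31.9 CPM with the hairpins and 31.3 CPM in the control in DMSO. Its hairpin libraries were above the control in both treatments, by more under ATRA, with a log2 fold change of 0.24 ± 0.09 (adjusted p = 0.57, edgeR). Without the control ATRA library it was 0.069, and without the control DMSO library 0.42. MRPS34, at -0.27 ± 0.08, likewise had -0.087 without the control DMSO library and -0.44 without the control ATRA library.

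The other genes named here were picked among those on the same side of the control in all 4 hairpin libraries, and differed by less. MRPL48 had 33.4 and 31.3 CPM with the hairpins and 37.6 CPM in the control under ATRA, and 34.4 and 37.8 CPM with the hairpins and 40.1 CPM in the control in DMSO. MRPL38 had a log2 fold change of -0.12 ± 0.05. MRPL50, at -0.13 ± 0.09, was not on the same side of the control in all 4 hairpin libraries. On the other side, MRPS15 had 54.7 and 52.6 CPM with the hairpins and 51.0 CPM in the control under ATRA, and 43.4 and 42.9 CPM with the hairpins and 37.3 CPM in the control in DMSO. MRPL15 and MRPL46 had log2 fold changes of 0.13 ± 0.07 and 0.12 ± 0.08.

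Within ATRA the hairpin libraries were set against 1 control library, and no member was called, against a background of 0.00813% of genes. An unadjusted p below 0.05 was given to 5 of the 75 by edgeR, against 1329 of all 12301 genes, and DESeq2 and limma-voom called 0 of the 75. Of all genes in ATRA, DESeq2 called 0.146% higher and 0.285% lower, and limma-voom called 0% higher and 0.00813% lower. Both hairpin libraries were above the control in 24 of the 75 genes and below it in 33, where the background was 39.2% above and 37.4% below. MRPL34 had a log2 fold change of 0.42 ± 0.09 (adjusted p = 0.29, edgeR) and MRPL41 of -0.26 ± 0.09 (0.40). With the construct as a replicate block, MRPL34 passed (adjusted p = 0.035, edgeR) as 1 of 75 genes higher, 1.33%, against 1.21% of all genes higher and 1.62% lower. Within DMSO no member was called, against a background of 0%, and DESeq2 and limma-voom again called 0 of the 75. Of all genes in DMSO, DESeq2 called 0.244% higher and 0.0488% lower, and limma-voom called 0% in each direction. Here 4 of the 75 had an unadjusted p below 0.05 (edgeR), against 868 of all 12301 genes. Both hairpin libraries were above the control in 35 of the 75 genes and below it in 19. Of all 12301 genes, 4307 (35%) were above and 4293 (34.9%) below. MRPS34 had a log2 fold change of -0.44 ± 0.08 (adjusted p = 0.31, edgeR) there, with 51.3 and 49.1 CPM in the hairpin libraries and 68.0 CPM in the control. With the block, MRPS34 passed (adjusted p = 0.010, edgeR) as 1 of 75 genes lower, 1.33%, against 0.691% of all genes higher and 0.252% lower. The block takes the difference between hairpins that both treatments share out of the error, so these p-values apply to this pair of hairpins. In the authors' deposited table of comparisons, 1 of the 75 genes passed in ATRA, MRPL34 with a log2 fold change of 0.30 and an adjusted p of 0.041, and 1 in DMSO, MRPS34 with -0.34 and 0.016. The authors' deposited table called 4.17% of genes in ATRA and 1.14% in DMSO, and may have counted sequencing runs as replicates.

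**Figure D4:**
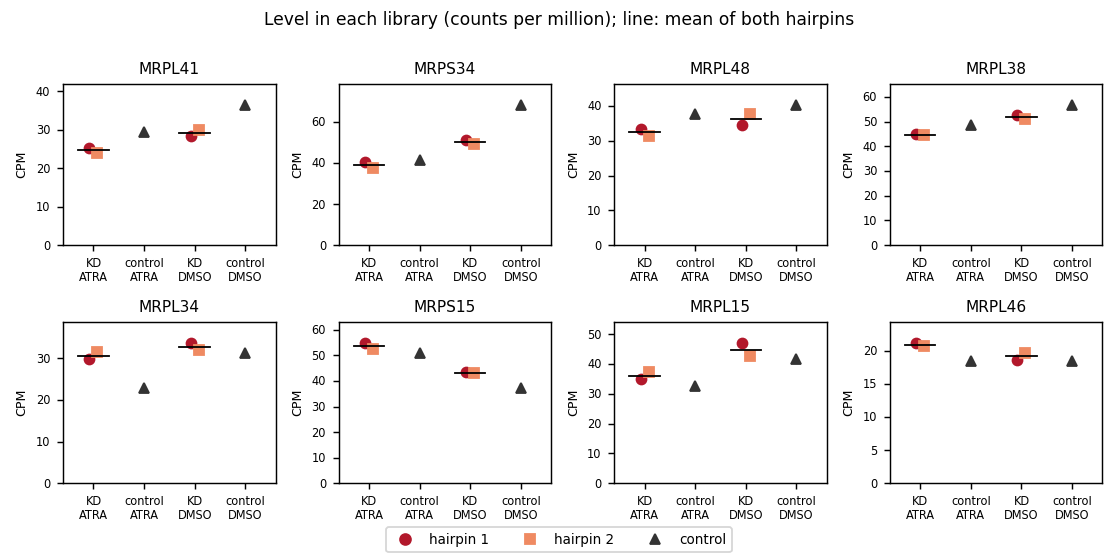
Level in CPM (TMM scaled, y axis from 0, 1 panel per gene), with hairpin libraries left of the control in each treatment. A line marks the mean of both hairpins. Shown are the 4 lowest and 4 highest genes over both treatments among those on the same side of the control in all 4 hairpin libraries. MRPL41 lies at 24.0 to 29.8 CPM in hairpin libraries and at 29.5 and 36.3 CPM in the controls.

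The response to ATRA was also compared between knockdown and control cells. No member was called, against a background of 0.0488% of genes, and the smallest adjusted p was 0.55 (edgeR). An unadjusted p below 0.05 was given to 3 of the 75 by edgeR, against 979 of all 12301 genes, and DESeq2 and limma-voom called 0 of the 75. Of all genes, DESeq2 called 0.00813% higher and 0.374% lower, and limma-voom called 0% higher and 0.0163% lower. MRPL34 and MRPS34 had the largest positive differences in response, each at 0.35 on the log2 scale, with SE of 0.13 and 0.12. The largest negative differences were -0.32 ± 0.23 for MRPL54, -0.28 ± 0.13 for MRPL2 and -0.26 ± 0.15 for MRPL53. In all, 33 of the 75 differences were positive and 42 negative. Between hairpin 2 and hairpin 1 no member was called either, against a background of 1.3% of genes higher and 0.732% lower (2.03% in all). Here 2 of the 75 had an unadjusted p below 0.05 (edgeR), against 1380 of all 12300 genes tested, and DESeq2 and limma-voom called 0 of the 75. Between hairpins, DESeq2 called 0.268% of all genes higher and 0.163% lower, and limma-voom called 2.16% higher and 1.42% lower. The largest difference there was MRPS26 at -0.18 ± 0.07 (adjusted p = 0.24, edgeR).

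**Figure D5:**
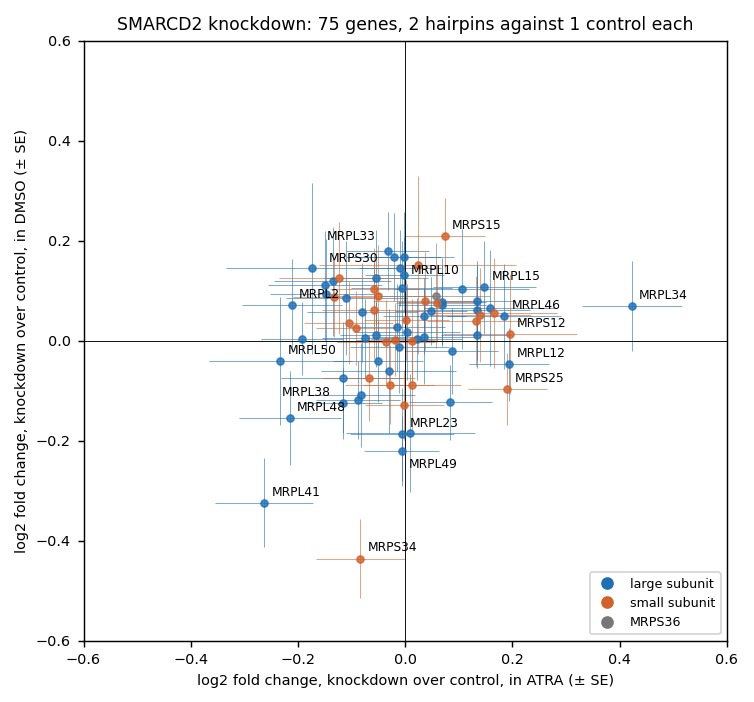
Log2 fold change of each of the 75 genes with knockdown over control, in ATRA (x axis) and in DMSO (y axis), with SE bars, coloured by subunit. The points gather around 0, with MRPL34 to the right at 0.42, MRPS34 at the bottom at -0.44 and MRPL41 low on both.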

How the data were processed

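RNA-seq was measured in 6 NB4 libraries. The authors deposited whole-number counts per gene in 2 sequencing runs per library, which were summed here. The deposited tables also hold the authors' normalized signal, log2 fold changes, test scores and p-values, used only where the authors' deposited table is named. The submitters' processing notes name bcl2fastq, STAR, Picard 2.5.0, DESeq2 and GRCh37.p13. The counting method and its use of strand are not given in the sources used here. Exon lengths and overlaps came from GENCODE v29 (GRCh38), matched by symbol only.

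Counts were tested with edgeR 4.0.16 (R 4.3.3) by its quasi-likelihood test, with TMM scaling, filterByExpr and Benjamini-Hochberg adjustment at 0.05 over the 12301 genes in both tables. ATRA and knockdown were terms of an additive fit of 6 libraries, and within-treatment and interaction contrasts came from a fit of 4 groups, in which a lone control is assumed to vary like the hairpin libraries. Alternatives were RLE and total-count scaling, no filter, DESeq2 1.42.0, limma-voom (limma 3.58.1), single runs, construct as a block and leaving out each library. The fit was also run on simulated counts with the same spread for every gene and no difference between hairpins. No result here rests on that run. Named were the 8 genes with the largest called increases and the 8 with the largest decreases with ATRA. These had to move the same way with all 3 constructs. In each knockdown comparison the 4 highest and 4 lowest were taken among genes on the same side of the control in every hairpin library compared. The stalk, disease and paralog genes were also named. The members and lists were chosen with earlier results of these data known. Tables were made with Python 3.11.15.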

Additional observations from a re-analysis of the deposited data

How the results depend on the processing

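For ATRA against DMSO, leaving out 1 library gave 13 to 17 genes higher and 31 to 35 lower, against 33.3% to 35.02% and 34.3% to 36.0% of all genes. Scaling by total counts gave 10 higher and 47 lower, against 29.6% and 46.5% of all genes. Under the other alternatives 15 to 17 were higher and 30 to 38 lower, against 34.8% to 37.1% and 35.2% to 38.0% of all genes. MRPL44 changed sign with total-count scaling, at -0.12, and ran between -0.00482 and 0.0335 when 1 library was left out. From run 2 alone the sign turned for MRPS7 with ATRA (0.028), and for MRPL46 over both treatments (-0.016), MRPS12 in ATRA (-0.071) and MRPS18C between hairpins (-0.067). The cause was not tested.

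Same-numbered libraries carry the same hairpin, per the labels, and nothing says that they share a culture. Their deviations correlated at 0.19 and 0.21 for the hairpins and at 0.08 for the control over 9467 genes, and the difference between hairpins correlated at 0.27 between treatments. The fit without the block was kept as the main one. With the construct as a replicate block, 16 genes (21.3%) were higher and 36 (48%) lower with ATRA, against 36.3% and 38.0% of all genes. Against 0.252% of all genes lower in DMSO and 1.21% higher in ATRA with the block, 1 gene was lower with knockdown in DMSO, MRPS34 at -0.44 (adjusted p = 0.010, edgeR), and 1 was higher in ATRA, MRPL34 at 0.42 (adjusted p = 0.035, edgeR). The block was not run for knockdown over both treatments or between hairpins, and a lone control could not be left out within a treatment.

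The length used for levels per kb moved the median of the 75 genes to 34.2 CPM per kb of median transcript, against 22.9 CPM per kb of exon union. That alternative was chosen after seeing the data. Each knockdown comparison rests on 1 control library per treatment, and hairpin libraries held more counts than the controls.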
